A study of Homo sapiens with 66 samples.

Results

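The effect of raising SOX10 was measured by RNA sequencing in the BRAF-mutant human melanoma line A375, in 3 libraries of cells that carried a SOX10 overexpression vector (SOX10OE) and 3 libraries of cells that carried an empty vector (EV). These 6 libraries, of 66 in the series, were chosen by their labels: all came from cells with a guide RNA against GFP, a gene that human cells lack, which the labels call wild type. The same experiment had 6 more libraries, EV and SOX10OE in cells with guide 1 against MED23, a subunit of Mediator, the large complex through which transcription factors act on RNA polymerase II. All 12 are given as 1 batch in the labels, with no drug treatment named for them. The first experiment of the series, another batch in the labels, gave 9 more libraries used here. These came from cells given DMSO for 24 h, with a guide against GFP or MED23. The promoter of the vector, its selection, whether the cells were a pool or a clone, and whether replicates were separate cultures are not stated, so that p-values measure the spread between these libraries, which may be technical.

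SOX10 is an HMG-box transcription factor of the neural crest, the embryonic population that gives rise to melanocytes and to the glia of peripheral nerves. It binds short sequences around ACAAAG or ACAATG and is needed for melanocytes through MITF, the main regulator of pigment cells, and for Schwann cells through genes of myelin. In melanoma, SOX10 is known for maintaining the melanocytic and neural crest-like states, and low SOX10 is known to go with a dedifferentiated, invasive state marked by receptors such as EGFR and AXL and by SOX9.

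The 6 libraries held 24.87 to 30.77 M counts each. Mitochondrially encoded genes took 1.458% to 1.747% of the counts in EV and 1.406% to 1.44% in SOX10OE, and ribosomal protein genes took 5.695% to 6.3%. Replicates within a group differed by 1.421 to 2.969 times the Poisson variance, and the common biological coefficient of variation was 2.97%. In MED23 knockout cells, SOX10OE replicate 1 differed from the other 2 replicates by 5.099 and 5.778 times the Poisson variance. Melanoma markers were present in part. MITF, SOX10, S100B, PRAME, CSPG4 and MCAM were expressed, but the pigment markers PMEL and MLANA stood at 0.891 and 0.928 CPM (counts scaled to a common library size) in EV, and TYR had 0 counts in EV and 2 in SOX10OE. The summed level of the 13 melanoma markers was 1480 to 1532 CPM in EV and 1667 to 1744 CPM in SOX10OE. This sum includes SOX10, the gene of the vector, at means of 525 CPM in EV and 600 CPM in SOX10OE. MITF, DCT, S100B, S100A1, PRAME and MCAM were also higher, and PMEL, MLANA and MIA did not pass. CSPG4 was lower, at means of 440 CPM in EV and 369 CPM in SOX10OE. Among markers of other cell types, HBB had no count, and CDH1, EPCAM and PTPRC stayed at or under 0.208 CPM, but others were expressed. The 8 neuron markers summed to 91.66 to 94.63 CPM in EV and 79.87 to 87.71 CPM in SOX10OE, most of it NEFL, which fell from a mean of 77.7 to 67.2 CPM, while SYT1 rose from 10.3 to 12.4 CPM. STMN2 was also lower, from a mean of 0.515 to 0.106 CPM. The 9 blood markers summed to 14.5 to 15.79 and 11.75 to 13.82 CPM, nearly all of it LYZ, which was lower. The 6 endothelial markers summed to 11.29 to 12.21 and 11.88 to 12.73 CPM, most of it KDR, which was higher. Another endothelial marker, PECAM1, was lower, from a mean of 1.53 to 0.951 CPM. The 10 keratinocyte and epithelial markers summed to 226 to 235.7 CPM in EV and 176.2 to 181.5 CPM in SOX10OE, nearly all of it KRT18, KRT8, KRT14 and DSP. The 3 keratins KRT18, KRT8 and KRT14 were lower, while DSP and CLDN1 were higher. The 8 fibroblast markers summed to 24.04 to 25.98 and 23.14 to 23.87 CPM, but members moved both ways. PDGFRA, DCN and FAP were higher, FAP from a mean of 0.563 to 1.79 CPM. COL1A1 and LUM were lower, COL1A1 from a mean of 3.85 to 1.76 CPM. The part of these differences in the other results was not tested.

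The vector raised total SOX10 RNA only slightly in these cells, which already expressed the gene strongly. SOX10 (ENSG00000100146; GRCh38, chromosome 22, 37970686 to 37987422, minus strand) was at 529.5, 531 and 514 CPM in EV and at 589, 599.5 and 612 CPM in SOX10OE. Every SOX10OE library lay above every EV library, by 1.14-fold on average (log2 fold change 0.19 ± 0.0296 SE, adjusted p = 7.55e-06). In MED23 knockout cells the same vector took SOX10 from 246 ± 6.24 CPM (SD, n = 3) to 429 ± 6.65 CPM, which is below the level that control cells had without it. Counts per gene do not separate RNA from the vector and RNA from the chromosomal gene, and whether the vector holds the full exons over which reads were counted is not given.

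Many genes changed beside this small rise of SOX10. Of 18009 genes tested, 2097 (11.6%) were higher and 1972 (11%) lower with SOX10 at an adjusted p under 0.05, together 4069 genes (22.6%). Most changes were small: the median log2 fold change was 0.251 among the higher genes and -0.313 among the lower ones. A change of at least 2-fold was reached by 143 genes upward (0.794%) and 286 downward (1.59%), together 2.38%, and a change of over 4-fold by 23 and 59. There were thus more large falls than large rises. The median over all genes tested was -0.000864, and 6602 genes (36.7%) had no overlap between the 3 and 3 libraries. Of 13707 protein-coding genes tested, 1894 (13.8%) were higher and 1800 (13.1%) lower. Of 2351 long noncoding RNAs tested, 108 (4.59%) were higher and 104 (4.42%) lower.

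**Figure D1:**
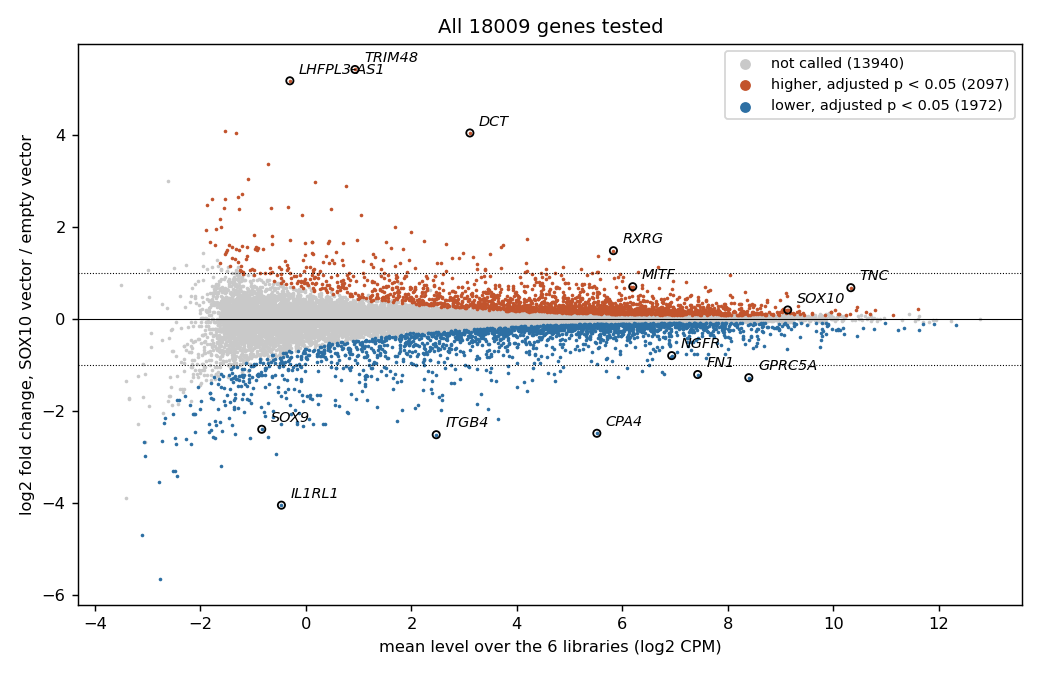
Log2 fold change of SOX10OE over EV (vertical axis) against the mean level over the 6 libraries (log2 CPM, horizontal axis) for the 18009 genes tested. Orange points are the 2097 genes called higher, blue points the 1972 called lower, and dotted lines mark a 2-fold change; SOX10 itself sits near 0 on the vertical axis while DCT, TRIM48 and LHFPL3-AS1 lie above 4.

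Genes known as direct targets of SOX10 in melanocytes and glia rose more often than genes at large. Of 23 such genes, 17 had enough counts to be tested, and 11 of them were higher and 1 lower, with a median log2 fold change of 0.46 against a median near 0 and 11.6% higher over all genes. The list was written with earlier results of these data known. The 6 members with too few counts were TYR, TYRP1, RET, CHRNB4, MBP and EGR2.

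DCT, the dopachrome tautomerase of melanin synthesis (ENSG00000080166; chromosome 13, 94436808 to 94479682, minus strand), had the largest change among these targets. It was at 1.79, 2.13 and 2.35 CPM in EV and at 35.5, 35.5 and 32.5 CPM in SOX10OE. The groups lay far apart, by 16.5-fold on average (log2 fold change 4.04 ± 0.0887, adjusted p = 4.07e-24). FABP7, a fatty acid binding protein of glial and melanoma cells, stood at 6.31, 7.01 and 7.27 CPM in EV and at 16.4, 19.2 and 19.4 CPM in SOX10OE, a 2.67-fold rise. EDNRB, the endothelin receptor of melanoblasts, rose from 28.1, 29.5 and 27.6 CPM to 44.6, 47.3 and 44.0 CPM. The noncoding RNA SAMMSON, which lies near MITF, rose from 2.57, 2.05 and 2.42 CPM to 4.10, 5.05 and 4.25 CPM.

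MITF was at 56.7, 57.4 and 58.3 CPM in EV and at 92.0, 96.5 and 91.6 CPM in SOX10OE, a 1.62-fold rise with no overlap (log2 fold change 0.70 ± 0.0428, adjusted p = 8.52e-14). ERBB3, the neuregulin receptor of Schwann cell precursors and melanocytes, went from 497, 504 and 505 CPM to 574, 585 and 575 CPM, a log2 fold change of 0.20. PMP22, a protein of peripheral myelin, had a log2 fold change of 0.20, and S100B, a calcium-binding protein of Schwann and melanoma cells, one of 0.50, both higher. PDGFRA, a growth factor receptor of early neural crest-derived cells, rose by 0.80 on the log2 scale, although 15.8% of its exon bases overlap another gene.

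Not every known target rose, and without SOX10OE replicate 1 the number of lower members was 0. MIA, a secreted melanoma protein, was at 0.970, 1.01 and 0.808 CPM in EV and at 1.08, 0.895 and 1.21 CPM in SOX10OE, overlapping groups with an adjusted p of 0.587, and 60.9% of its exon bases overlap MIA-RAB4B. GJB1, CNTF, CHRNA3 and POU3F1 also did not pass, with log2 fold changes of 0.05 to 0.32.

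**Figure D2:**
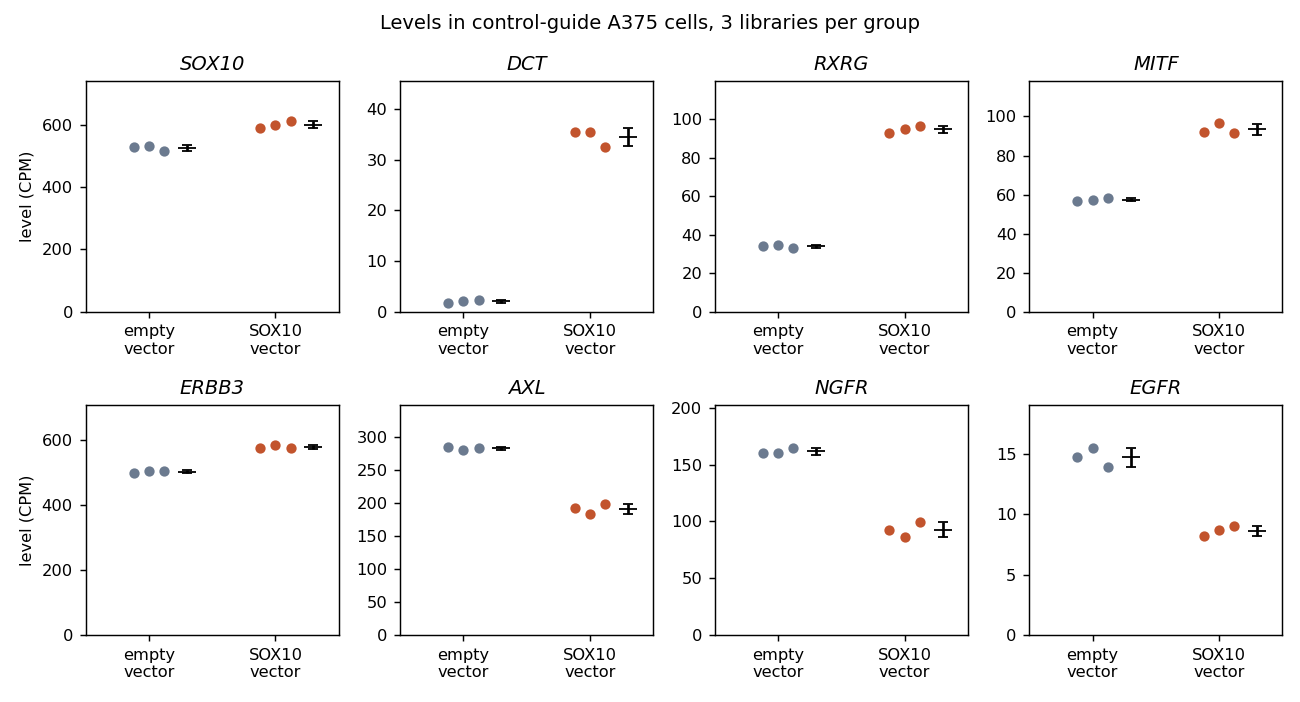
Levels (CPM) of 8 genes in the 6 libraries: each point is 1 library, and the black mark beside them is the mean ± SD of the 3 libraries. SOX10 and ERBB3 lie only slightly higher with the SOX10 vector, while DCT goes from about 2 CPM to above 30 CPM, and AXL, NGFR and EGFR are lower with the SOX10 vector.

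Of 25 transcription factors of the neural crest and of the SOX family tested, SOX10 included, 13 were higher (52%, against 11.6% of all genes) and 1 lower (median log2 fold change 0.20); without SOX10OE replicate 2, EV replicate 2 or the first MED23 knockout SOX10OE replicate, or with the 6 libraries alone, 2 were lower. SOX6, a partner of SOX5 in the SoxD group, rose from 4.48, 4.22 and 4.04 CPM to 8.27, 8.26 and 8.54 CPM, and SOX5 from 305, 315 and 288 CPM to 366, 389 and 360.2 CPM. SNAI2, a repressor of the neural crest, rose by 0.89 on the log2 scale, TWIST1 by 0.73, TFAP2B by 0.63 and SOX4 by 0.59. FOXD3, ZEB2, LEF1, POU3F2, SOX11 and ETS1 were also higher, with log2 fold changes of 0.12 to 0.31. SOX2, PAX3, TFAP2A and TFAP2C did not pass, with log2 fold changes of -0.07 to 0.07.

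SOX9, which shares the HMG box with SOX10 and marks dedifferentiated melanoma cells, was the member that fell. It had 87 counts over the 3 EV libraries and 17 over the 3 SOX10OE libraries, or 1.12, 0.891 and 1.25 CPM against 0.230, 0.244 and 0.138 CPM. The groups did not overlap (log2 fold change -2.40 ± 0.349, adjusted p = 3.44e-06), though both levels were low. SOX8, the third member of the SoxE group with SOX9 and SOX10, was at 1.60, 1.86 and 1.84 CPM in EV and at 2.10, 2.24 and 2.11 CPM in SOX10OE, and did not pass (log2 fold change 0.28 ± 0.174, adjusted p = 0.283). Per kilobase of exon, SOX10 was the most abundant of the SOX genes measured, at 141.5 CPM per kb in EV, followed by SOX5 at 29.0, SOX11 at 15.0, SOX12 at 8.47 and SOX2 at 7.83, with SOX9 at 0.276.

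Glial genes and genes of the neural crest-like melanoma state moved in both directions. Of 20 Schwann cell and glial genes tested, 8 were higher and 4 lower (median 0.17), and of 19 neural crest-like genes 8 were higher and 5 lower (median 0.20), against 11.6% higher and 11% lower over all genes. RXRG, the retinoid X receptor gamma that marks the neural crest-like state (chromosome 1, 165400917 to 165445355, minus strand), was at 34.0, 34.8 and 33.2 CPM in EV and at 92.9, 94.9 and 96.8 CPM in SOX10OE. It rose 2.79-fold (log2 fold change 1.48 ± 0.0473, adjusted p = 2.4e-20). SCRG1, a small protein of glia and cartilage, rose from 0.560, 0.465 and 0.661 CPM to 2.69, 3.01 and 3.25 CPM. CADM1, an adhesion molecule, rose from 80.3, 85.0 and 80.2 CPM to 131, 131 and 129 CPM, and the integrin subunit ITGA4 and the intermediate filament NES rose by 0.49 and 0.31 on the log2 scale.

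NGFR, the nerve growth factor receptor by which this state is usually sorted, went the other way. It was at 159.9, 159.9 and 165 CPM in EV and at 92.4, 86.3 and 99.3 CPM in SOX10OE, 1.74-fold lower with no overlap (log2 fold change -0.80 ± 0.0383, adjusted p = 3.05e-16), though 22.3% of its exon bases overlap a gene on the other strand. L1CAM, a neural adhesion molecule, fell from 123, 120.2 and 122 CPM to 54.9, 55.1 and 57.0 CPM. SLITRK6, a neuronal membrane protein, fell by 0.61 on the log2 scale, SEMA3B by 0.38 and ANXA1 by 0.25. AQP1, NCAM1 and GFRA2 did not pass.

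Among 21 pigment and melanosome genes tested, 8 were higher (38.1%, against 11.6% of all genes) and 2 lower (9.52%, near the 11% of all genes). Their median log2 fold change was 0.16. A further 8 had too few counts, among them TYR, TYRP1, SLC45A2 and TRPM1. Beside DCT and MITF, GPNMB, a glycoprotein of melanosomes and lysosomes, rose from 260.4, 257 and 267 CPM to 394, 393 and 387 CPM. BCL2A1, a survival factor and known MITF target, rose from 0.709, 0.465 and 0.698 CPM to 1.44, 1.67 and 1.94 CPM. ST3GAL6, RAB38, ATP7A and MYO5A were higher by 0.16 to 0.72 on the log2 scale. MLPH, the melanophilin that links melanosomes to myosin Va, fell from 3.28, 2.91 and 2.97 CPM to 0.788, 1.30 and 0.899 CPM. PMEL, MLANA, MC1R and OCA2 did not pass, with log2 fold changes of -0.39, 0.35, 0.05 and 0.23. TSPAN10 was the other lower member, a call that was lost without EV replicate 3 (adjusted p = 0.0722) without SOX10OE replicate 2 or 3 (0.0532 and 0.0714) or with DESeq2 (0.0566), each of which left 1 lower member.

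**Figure D3:**
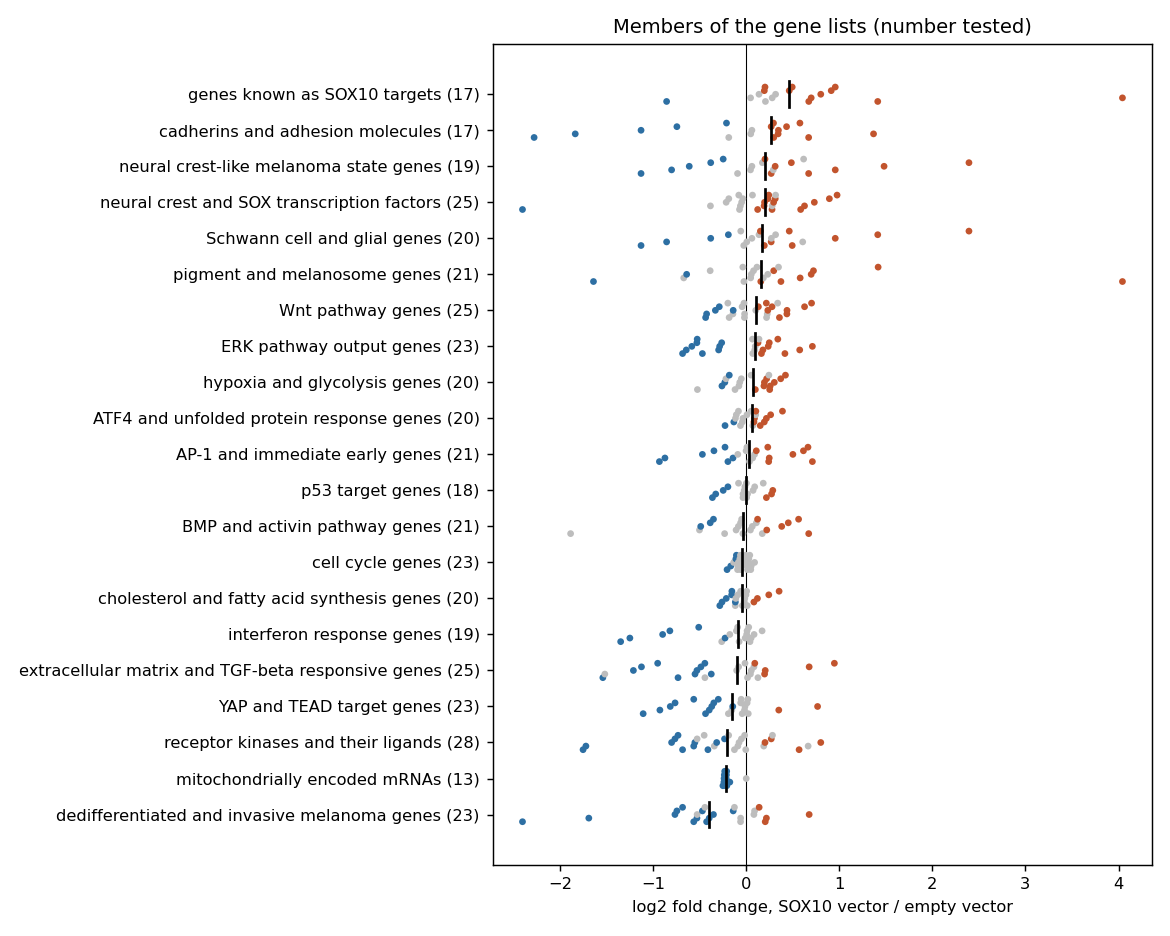
Log2 fold change of SOX10OE over EV (horizontal axis) for every tested member of the 21 gene lists, sorted by their medians (black bars). Orange members were higher and blue members lower at an adjusted p under 0.05, grey members did not pass; known SOX10 targets have the highest median (0.46) and dedifferentiated and invasive genes the lowest (-0.40).

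The 15 largest rises among genes with a mean log2 CPM of at least 2 were all between 2.3-fold and 16.5-fold, and in each the 3 SOX10OE libraries lay above the 3 EV libraries, which the choice of these genes required. After DCT came ENPP2, or autotaxin, the secreted enzyme that makes lysophosphatidic acid, at 10.1, 9.49 and 10.5 CPM in EV and 32.4, 34.1 and 32.9 CPM in SOX10OE. P2RX7, an ATP-gated ion channel, went from 2.76, 2.56 and 2.42 CPM to 8.47, 8.63 and 8.09 CPM. ACAN, the matrix proteoglycan aggrecan, went from 3.62, 3.14 and 3.89 CPM to 9.78, 11.4 and 11.7 CPM. These 3 genes were thus each just over 3-fold higher. ATP10B, a phospholipid flippase, was 3.04-fold higher, ITIH5, a hyaluronan-associated inhibitor chain, 2.96-fold, and TAFA2, a secreted chemokine-like protein, 2.69-fold. PCDH7, a protocadherin, stood at 29.6, 28.5 and 28.2 CPM in EV and at 75.3, 73.4 and 74.0 CPM in SOX10OE. IL1RAP, the shared subunit of interleukin 1 family receptors, went from 34.6, 34.8 and 32.5 CPM to 85.5, 87.0 and 80.1 CPM. TRIM51 was 2.57-fold higher, ELOVL2, which elongates polyunsaturated fatty acids, 2.49-fold, ANO3, an anoctamin, 2.48-fold, and CD200, a ligand that restrains myeloid cells, 2.3-fold, with 11.9% of its exon bases overlapping another gene.

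The upstream sequences of 4 of these genes are shown to place the SOX core letters ACAAAG and ACAATG (either strand, in capitals) near start sites of the genes that rose. ENPP2 was not examined. Among the others of the 15, these 4 are the genes whose RefSeq start lies within 50 bases of the GENCODE start and whose window holds almost no exon (GRCh38.p14, from RefSeq, up to 250 bases ending just before the start). ATP10B (chr5:160852215-160852461, minus strand) holds ACAAAG 193 bases and ACAATG 86 bases before its RefSeq start, which lies 3 bases past the end of the printed sequence, and TRIM51 (chr11:55883047-55883296, plus strand) holds ACAATG 237 bases before it. ACAN (chr15:88803186-88803435, plus strand) and PCDH7 (chr4:30720119-30720368, plus strand) hold no match.
ATP10B: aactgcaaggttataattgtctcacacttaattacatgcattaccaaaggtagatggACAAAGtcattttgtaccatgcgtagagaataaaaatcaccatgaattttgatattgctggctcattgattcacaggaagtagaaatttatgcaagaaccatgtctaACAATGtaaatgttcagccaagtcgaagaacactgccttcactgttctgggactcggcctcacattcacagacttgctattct
TRIM51: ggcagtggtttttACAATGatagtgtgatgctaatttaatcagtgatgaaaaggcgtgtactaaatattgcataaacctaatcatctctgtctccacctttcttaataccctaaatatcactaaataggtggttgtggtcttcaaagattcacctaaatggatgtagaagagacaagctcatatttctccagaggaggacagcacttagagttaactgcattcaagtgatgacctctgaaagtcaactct
ACAN: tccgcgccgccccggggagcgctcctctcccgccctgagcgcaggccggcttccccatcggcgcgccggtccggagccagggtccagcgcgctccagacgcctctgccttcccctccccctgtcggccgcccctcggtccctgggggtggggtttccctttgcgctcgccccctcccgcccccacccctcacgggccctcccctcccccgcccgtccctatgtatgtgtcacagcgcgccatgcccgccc
PCDH7: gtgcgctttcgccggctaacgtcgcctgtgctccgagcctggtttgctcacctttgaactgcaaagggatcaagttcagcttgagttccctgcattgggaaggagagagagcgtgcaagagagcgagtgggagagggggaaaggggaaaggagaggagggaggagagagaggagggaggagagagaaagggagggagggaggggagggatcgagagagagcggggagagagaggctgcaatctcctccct
Of the 12029 genes tested that had a RefSeq promoter under the same symbol, 2021 (16.8%) held ACAAAG or ACAATG within the 300 bases from 250 before to 50 after the start. ACAAAG was held by 11.4%, ACAATG by 6.3%, and the longer ACAAAGG, which contains ACAAAG, by 3.65%. A promoter that held both ACAAAG and ACAATG counts under each. A comparison between gene sets is void, because a promoter was matched for only 57.3% of the genes that rose at least 2-fold and 61.9% of those that fell at least 2-fold. For DCT, the RefSeq start lies 69724 bases away from the GENCODE start, and its window was not used.

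In the 15 largest falls no library of one group overlapped the other, again by the choice of the genes. ITGB4 (chromosome 17, 75721328 to 75757818, plus strand), the integrin subunit of hemidesmosomes that pairs with ITGA6 and binds laminin, was at 13.9, 13.2 and 12.1 CPM in EV and at 2.40, 2.20 and 2.21 CPM in SOX10OE, 5.76-fold lower (log2 fold change -2.52 ± 0.106, adjusted p = 1.48e-17). CPA4, a carboxypeptidase (chromosome 7, 130293134 to 130324180, plus strand), was at 114, 103 and 107 CPM in EV and at 20.6, 19.0 and 18.3 CPM in SOX10OE, 5.62-fold lower (log2 fold change -2.49 ± 0.0508, adjusted p = 1.07e-24). GDA, the guanine deaminase, went from 26.2, 26.3 and 26.7 CPM to 5.91, 6.23 and 5.32 CPM.
Next came ADGRF1, an adhesion G protein-coupled receptor, 3.95-fold lower, the complement component C3, 3.88-fold lower, and the teneurin TENM2, 3.84-fold lower. VEGFC, the growth factor of lymphatic vessels, went from 17.0, 17.1 and 19.2 CPM to 5.22, 5.09 and 4.49 CPM. IL17RD, an inhibitor of FGF signalling, went from 11.3, 11.2 and 10.1 CPM to 3.25, 3.50 and 2.94 CPM. SLC14A1, a urea transporter, was 3.65-fold lower, ABCC3, an organic anion exporter, 3.21-fold, F2RL1, the protease-activated receptor 2, 3.17-fold, and ARHGAP29, a GTPase-activating protein, 2.97-fold. The collagen genes COL5A3, COL13A1 and COL6A3 were 3.11-fold, 3.03-fold and 2.88-fold lower.

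**Figure D4:**
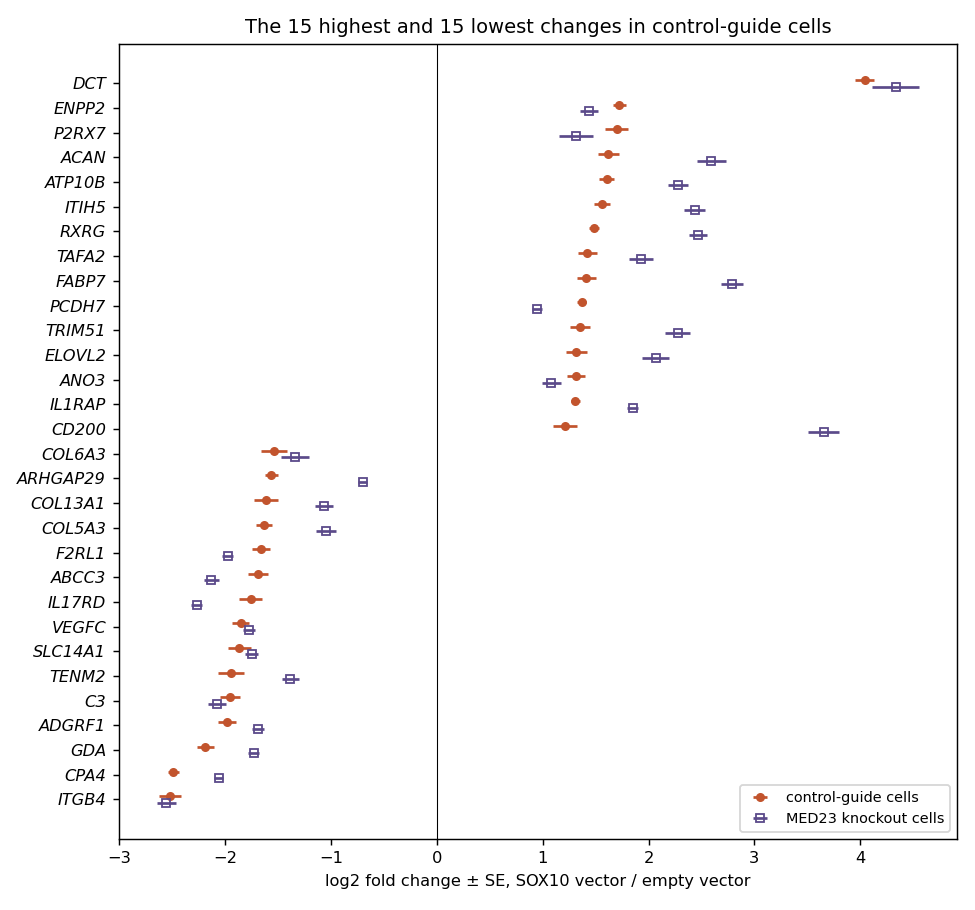
Log2 fold change ± SE of SOX10OE over EV for the 15 highest and 15 lowest genes, in control-guide cells (filled circles) and in MED23 knockout cells (open squares). All 30 genes lie on the same side of 0 in both kinds of cell; CD200 is the furthest apart (1.21 in control cells and 3.65 in knockout cells).

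Of 25 extracellular matrix genes tested, 10 were lower (40%, against 11% of all genes), 5 were higher (20%, against 11.6%) and 10 did not pass, with a median of -0.10. FN1, or fibronectin, was at 259.98, 263 and 262 CPM in EV and at 115, 116 and 107 CPM in SOX10OE, 2.31-fold lower. COL1A1, COL5A1 and COL6A1 fell by 1.12, 0.95 and 0.73 on the log2 scale, and BGN, LOXL2, LUM, COL6A2 and THBS1 by 0.37 to 0.55. TNC, or tenascin C, was an abundant member that rose, with a log2 fold change of 0.68. It was at 1028, 1033 and 997 CPM in EV and at 1630.1, 1640.3 and 1620.3 CPM in SOX10OE. SPARC was more abundant still, at means of 1652 CPM in EV and 1896 CPM in SOX10OE. DCN, TGFBI and SPARC were also higher, by 0.95, 0.21 and 0.20, and COL4A2 by 0.09, which did not pass without SOX10OE replicate 3 (adjusted p = 0.163), EV replicate 2 (0.0594) or EV replicate 3 (0.0952).

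Genes of the dedifferentiated and invasive melanoma state were lower in 12 of 23 cases (52.2%, against 11% of all genes) and higher in 4 (17.4%, against 11.6%), with a median log2 fold change of -0.40, the lowest of the 21 lists. EGFR was at 14.7, 15.5 and 13.9 CPM in EV and at 8.24, 8.67 and 9.06 CPM in SOX10OE, 1.70-fold lower (log2 fold change -0.76 ± 0.0762, adjusted p = 3.44e-09). The receptor kinase AXL was at 285, 279.7 and 282 CPM in EV and at 192, 184 and 198 CPM in SOX10OE, 1.48-fold lower (log2 fold change -0.56 ± 0.0339, adjusted p = 6.51e-14). ABCC3, SOX9, CDH13, EPHA2, LOXL2, FOSL1, DKK1, NT5E and TNFRSF12A fell too, NT5E and TNFRSF12A by 0.40 and 0.35 on the log2 scale. WNT5A had a log2 fold change of -0.14 with an adjusted p of 0.048, which was lost under 13 alternatives, among them without EV replicate 1 or 3 (0.311 and 0.159) and without each SOX10OE replicate (0.0652 to 0.162). VIM, TGFBI and TNC were higher, VIM with 12.4% of its exon bases overlapping VIM-AS1, and TCF4 had a log2 fold change of 0.22 that did not pass without EV replicate 1 (0.0632), EV replicate 3 (0.0865) or SOX10OE replicate 3 (0.0505). ZEB1, INHBA, JUN, LOX, PDGFRB and NRG1 did not pass. The EGFR values rest on 1173 counts over the 3 EV libraries.

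Of 28 receptor kinases and their ligands tested, 11 were lower (39.3%, against 11% of all genes) and 4 higher (14.3%, against 11.6%), with a median of -0.21. EGFR, AXL, EPHA2, PDGFRB and NRG1 are also in the dedifferentiated list. AREG, or amphiregulin, a ligand of EGFR, went from 3.62, 3.33 and 3.30 CPM to 1.12, 1.06 and 0.864 CPM, and PDGFB fell by 1.72 on the log2 scale. MET, the receptor of hepatocyte growth factor, went from 145, 139 and 144 CPM to 99.5, 97.6 and 94.9 CPM. FGFR1, ERBB2, NTRK2 and PDGFC were lower by 0.23 to 0.73 on the log2 scale. The members that rose were ERBB3, PDGFRA, TYRO3 and KITLG, the ligand of KIT, with log2 fold changes of 0.20 to 0.80. KIT itself had 0 counts in the 6 libraries.

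Target genes of YAP and TEAD, the effectors of the Hippo pathway, were lower in 11 of 23 cases (47.8%, against 11% of all genes). They were higher in 2 (8.7%, against 11.6% of all genes), with a median of -0.15. ANKRD1 went from 15.1, 14.7 and 16.6 CPM to 7.65, 6.80 and 7.09 CPM, and AJUBA from 37.3, 38.0 and 38.2 CPM to 19.8, 19.3 and 20.6 CPM. CRIM1, AMOTL2, CCN1 and CCN2 fell by 0.76, 0.44, 0.35 and 0.30 on the log2 scale. RBMS3 and ASAP1 rose by 0.77 and 0.35. TEAD1, LATS2, PTPN14 and AMOTL1 did not pass, with log2 fold changes of -0.06 to 0.02.

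Output genes of the ERK pathway, which mutant BRAF keeps active, split evenly, with 9 of 23 higher and 9 lower (39.1% each, median 0.09). Over all genes, 11.6% were higher and 11% lower. The higher members included the feedback inhibitors SPRY1, SPRY4 and SPRY2, with log2 fold changes of 0.58, 0.42 and 0.18, and EGR1 and MYC, with 0.71 and 0.34. DUSP6, a phosphatase of ERK, was at 152, 155 and 151 CPM in EV and at 180.0, 188 and 173 CPM in SOX10OE, 1.18-fold higher, although 40.5% of its exon bases overlap a gene on the other strand. The lower members included DUSP4, another such phosphatase, from 499, 510.0 and 501 CPM to 335, 331 and 342 CPM, and EPHA2, LIF, EPHA4, FOSL1 and ETV4. CCND1, or cyclin D1, was at 452, 464 and 441 CPM in EV and at 316, 318 and 306 CPM in SOX10OE, 1.44-fold lower with no overlap (log2 fold change -0.53 ± 0.0329, adjusted p = 1.22e-13), with 10.3% of its exon bases overlapping LTO1. Of 21 AP-1 and immediate early genes, 8 were higher (38.1%, against 11.6% of all genes) and 7 lower (33.3%, against 11%), with a median of 0.04. The number higher was 5 without EV replicate 3, and the number lower was 4 without EV replicate 1 or by DESeq2. EGR1, FOS, NR4A3 and FOSB rose by 0.50 to 0.71 on the log2 scale, and KLF4, FOSL1 and FOSL2 fell by 0.87, 0.47 and 0.35.

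Cadherins and adhesion molecules rose in 9 of 17 cases (52.9%, against 11.6% of all genes) and fell in 5 (29.4%, against 11%), with a median of 0.27. CDH2, or N-cadherin, rose by 0.30 on the log2 scale, the melanoma adhesion molecules MCAM and ALCAM by 0.35 and 0.34, CADM3 by 0.58 and the Schwann cell precursor cadherin CDH19 by 0.27. CDH11, a mesenchymal cadherin, fell from 1.46, 1.47 and 1.29 CPM to 0.328, 0.326 and 0.207 CPM, and CDH3, or P-cadherin, from 0.821, 0.659 and 0.844 CPM to 0.197, 0.163 and 0.277 CPM, with 11.1% of its exon bases overlapping another gene. CDH13 and CD44 were lower by 0.74 and 0.21. CDH1, or E-cadherin, had 3 counts over the EV libraries and 1 over the SOX10OE libraries, too few to test.

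Of 25 Wnt pathway genes tested, 9 were higher (36%, against 11.6% of all genes) and 5 lower (20%, against 11%), with a median of 0.10. The number lower was 3 without EV replicate 1, SOX10OE replicate 1 or SOX10OE replicate 3. The receptors FZD7, FZD4, FZD3 and FZD1 rose by 0.44, 0.36, 0.23 and 0.22 on the log2 scale, and the transcription factors TCF7L1 and LEF1 by 0.70 and 0.28. The secreted inhibitors SFRP1 and DKK1 fell by 0.44 and 0.42, SFRP1 from 359, 371 and 353 CPM to 269.5, 268 and 264 CPM. Of 21 BMP and activin pathway genes, 6 were higher (28.6%) and 3 lower (14.3%, near the 11% of all genes), with a median of -0.03. ID4, BMP2, BAMBI and CHRDL1 rose by 0.67, 0.56, 0.45 and 0.38, and SMAD6, FST and ID1 fell by 0.49, 0.39 and 0.35.

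Cell cycle genes changed little. MKI67, the proliferation antigen, was at 616, 648 and 608 CPM in EV and at 603, 579 and 579 CPM in SOX10OE, with a log2 fold change of -0.09 ± 0.0402 and an adjusted p of 0.12. It passed with only the 6 libraries in the fit (0.0222) and without the first MED23 knockout SOX10OE replicate (0.0128). Of 23 cell cycle genes, 0 were higher by edgeR and by DESeq2 (1 at an unadjusted p under 0.05), and 4 were lower (17.4%, against 11% of all genes; median -0.04). Without EV replicate 3 or the first MED23 knockout SOX10OE replicate, 1 was higher. The number lower was 2 without EV replicate 2 or 3 or SOX10OE replicate 2 or 3, 7 with the 6 libraries alone, and 8 without the first MED23 knockout SOX10OE replicate. E2F1 and FOXM1 fell by 0.20 and 0.16 on the log2 scale, FOXM1 with 15.9% of its exon bases overlapping another gene. MCM5 and MCM2 had log2 fold changes of -0.11 and -0.10, and both lost their calls without EV replicate 2 or 3 or SOX10OE replicate 2 or 3 (adjusted p up to 0.0983 for MCM5 and 0.178 for MCM2), MCM2 also without EV replicate 1 (0.155), without MED23 knockout EV replicate 2 (0.0529) and with DESeq2 (0.0735). Of 13 mitochondrially encoded mRNAs, 12 were lower (92.3%, against 11% of all genes, median -0.22), all by 0.17 to 0.25 on the log2 scale. MT-ND3 did not pass. By DESeq2 8 were lower, and 0 were higher by either tool or at an unadjusted p under 0.05. Their summed level was 13490 to 16350 CPM in EV and 12940 to 13350 CPM in SOX10OE, so that the lowest EV library was close to the SOX10OE libraries.

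Some of the largest changes were of genes at low levels, outside the naming rule, and were singled out after their values were seen. TRIM48 had 21 counts over the EV libraries and 962 over the SOX10OE libraries, at 0.336, 0.116 and 0.330 CPM against 10.8, 11.5 and 12.1 CPM (log2 fold change 5.42 ± 0.171). TRIM48 and TRIM51 belong to a family with near-identical copies on chromosome 11, so that the share of each in these counts is uncertain. LHFPL3-AS1, a noncoding RNA, had 8 counts against 317 and PMP2, a protein of peripheral myelin, 4 against 78. BANCR, a noncoding RNA of melanocytic cells, had 24 against 139. SLC18A1, a vesicular monoamine transporter, had 47 against 366, and MUC7, a mucin, 12 against 133. Downward, IL1RL1, the receptor of interleukin 33, had 195 counts in EV and 12 in SOX10OE, CSMD2 55 and 6, and FGFBP1 127 and 17. LGR6, a receptor of R-spondins, had 18 counts in EV and none in SOX10OE.
Among abundant genes, GPRC5A, an orphan receptor, went from 534, 519 and 522 CPM to 217, 212 and 219 CPM, and the aminopeptidase ANPEP from 170.4, 166 and 166 CPM to 72.0, 73.3 and 72.5 CPM. NRP1, a co-receptor of VEGF and semaphorins, the transglutaminase TGM2 and the proteoglycan SPOCK1 were 2.42-fold, 2.24-fold and 2.01-fold lower. A2M and MEF2C, a transcription factor of neural crest cells, were 2.18-fold and 2.02-fold higher, and HAPLN1, a hyaluronan link protein, 1.93-fold.

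The same vector in MED23 knockout cells gave a second reading with separate libraries on both sides. There, 3814 of the 18009 genes (21.2%) were higher and 3729 (20.7%) lower with SOX10, where SOX10 itself rose more. Of the 2097 genes that were higher in control cells, 1457 (69.5%) were also higher in knockout cells and 98 (4.67%) lower. Of the 1972 that were lower, 1397 (70.8%) were also lower and 85 (4.31%) higher. Among genes changed at least 2-fold in control cells, 110 of 143 were higher again and 233 of 286 lower again. The difference between the 2 kinds of cell, tested as an interaction, was called for 2644 genes (14.7%), and for 671 of the 2097 and 606 of the 1972; over all genes it was 3466 without the first MED23 knockout SOX10OE replicate, the library that stood apart.

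The difference was called for 9 of the 17 known SOX10 targets tested, against 14.7% of all genes. ERBB3 was at 191, 205 and 213 CPM in knockout cells with EV and at 515, 512 and 508 CPM with SOX10, a log2 fold change of 1.33 against 0.20 in control cells (difference 1.13 ± 0.0456, adjusted p = 3.57e-17). RXRG rose by 2.47 on the log2 scale against 1.48 (difference 0.99 ± 0.101, adjusted p = 1.57e-08), from 4.17 ± 0.466 CPM to 23.1 ± 2.2 CPM (SD, n = 3). DCT rose by 4.33 against 4.04, a difference that did not pass (0.29 ± 0.328, adjusted p = 0.643). EGFR, at 79.8, 80.8 and 81.7 CPM in knockout cells with EV, fell to 24.4, 20.6 and 20.7 CPM, a log2 fold change of -1.88 against -0.76.

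MITF and NGFR responded differently in the 2 kinds of cell. MITF was at 67.0, 62.4 and 66.1 CPM in knockout cells with EV and at 59.0, 51.2 and 53.6 CPM with SOX10, lower by 0.25 on the log2 scale where it had risen by 0.70 in control cells (difference -0.95 ± 0.0615, adjusted p = 1.54e-12). NGFR, which fell by 0.80 in control cells, was at 89.1, 86.0 and 90.1 CPM with EV and at 92.8, 93.1 and 95.7 CPM with SOX10 in knockout cells and did not pass there (difference 0.89 ± 0.0552, adjusted p = 7.9e-13). In all, 183 genes were called in opposite directions with a called difference. Among those with large differences, chosen after their values were seen, KRT14 had log2 fold changes of -0.80 in control and 1.06 in knockout cells, CDCP1 0.73 and -0.89, TGFBI 0.21 and -1.27, CDKN1C -0.69 and 0.73, and FST -0.39 and 0.87.

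The genes changed by SOX10 were also read in the first experiment of the series, in 9 libraries of cells given DMSO for 24 h. They are of another batch in the labels and share no library with those above: 3 with the control guide and 3 with each of 2 guides against MED23. The fit also held the other libraries of that experiment, from vemurafenib-treated cells and MED12 and MED19 knockout cells. MED23 loss lowered SOX10 there (log2 fold change -1.43, adjusted p = 5.75e-30). Over the 18003 genes tested in both, 26.5% were lower and 24.6% higher after MED23 loss. Of the 2095 genes that SOX10 raised and that were tested there, 1353 (64.6%) were lower after MED23 loss and 240 (11.5%) higher. Of the 1972 that fell with SOX10, 1185 (60.1%) were higher and 309 (15.7%) lower. Among genes changed at least 2-fold, 101 of 141 raised genes (71.6%) were lower and 207 of 286 lowered genes (72.4%) higher.
Among the 18003 genes tested in both, the 1353 genes were 28.3% of the 4776 that were lower after MED23 loss. The 1185 genes were 26.7% of the 4436 that were higher after it. Over all genes of the SOX10 comparison, 11.6% were higher and 11% lower with SOX10. DCT had a log2 fold change of -5.06 after MED23 loss, RXRG -3.90 and ERBB3 -1.69, and the genes that fell with SOX10 included SOX9 with 3.10, IL17RD with 2.75, EGFR with 2.48, GDA with 2.35 and CPA4 with 1.95. C3, COL5A3 and COL6A3 fell with SOX10 and were also lower after MED23 loss, by 0.28, 0.84 and 0.44 on the log2 scale, and NGFR was lower in both by 0.80 and 0.97.

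**Figure D5:**
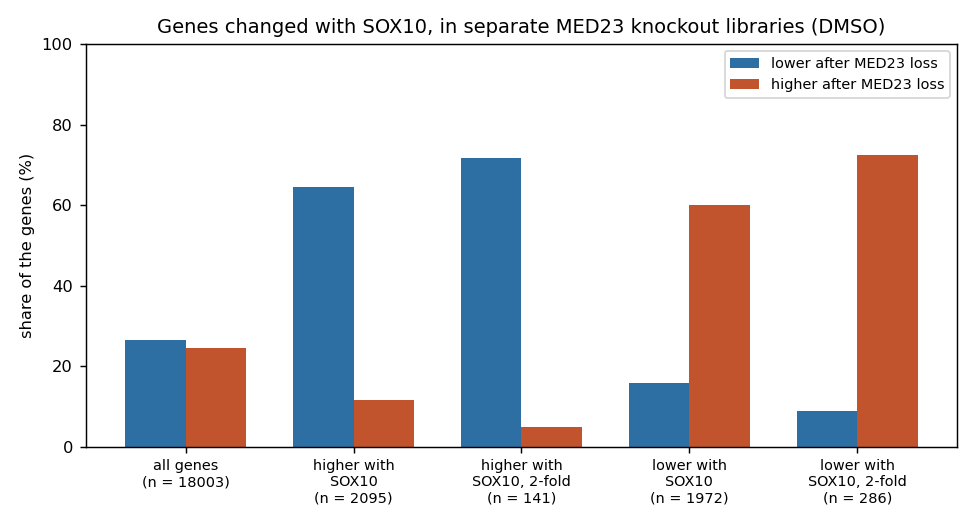
Share of genes (vertical axis, percent) that were lower (blue) or higher (orange) after MED23 loss in DMSO, in libraries not used for the SOX10 comparison, for all genes and for the genes higher or lower with SOX10 in control cells. Among all genes the bars are near equal (26.5% and 24.6%), while 71.6% of the genes raised at least 2-fold by SOX10 were lower.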

How the data were processed

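Per the labels' protocols, RNeasy Plus Mini columns gave the RNA, and KAPA Stranded mRNA-Seq the libraries. The authors deposited counts of reads per gene, 58721 Ensembl IDs in each table; per the submitters' processing notes, bcl2fastq, HISAT2, HTSeq and hg38 were used, with no version, annotation or strand setting given in the sources used here. Counts of genes with near-identical copies or overlapping exons are uncertain for that reason. Coordinates are from GENCODE 29 (58676 IDs matched).

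The 12 libraries of the SOX10 experiment were fitted together with edgeR 4.0.16 (R 4.3.3): filterByExpr (minimum count 10, minimum total 15), TMM scaling, quasi-likelihood fits of a separate mean for each group, and Benjamini-Hochberg adjustment over 18009 genes. A gene was called at an adjusted p under 0.05, and only then said to have risen or fallen. Standard errors (SE) were derived from the fold change and its F statistic; CPM use TMM-scaled totals. The procedure was tested on simulated data. Alternatives were DESeq2 1.42.0 (Wald test, size factors), no low-count filter, the 6 libraries alone, a 1.2-fold minimum, a replicate block and leaving out each library. MED23 loss was fitted with all libraries of the first experiment, as the mean of both guides in DMSO minus the control guide in DMSO.

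Genes named were a set list, the 15 highest and 15 lowest log2 fold changes (adjusted p under 0.05, a symbol, mean log2 CPM of at least 2, no overlap of libraries), which 1737 higher and 1443 lower genes could enter, and up to 4 members of each list with those moving against it; other list members are given as values. The 21 lists (433 genes) and the 6 marker lists were chosen with earlier results of these data known. Whether replicate numbers pair libraries was checked: deviations from group means of same-numbered libraries correlated by 0.00508 to 0.0215, under the 0.1 required, so they were not treated as pairs. Some named genes and list members are not reported here; they stay in the counts.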

Additional observations from a re-analysis of the deposited data

Results flagged for a closer look

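For 28 of the genes in the set list and among the 15 highest and 15 lowest, the effect of the SOX10 vector differed between MED23 knockout and control cells, by a test of the difference itself (edgeR interaction, adjusted p under 0.05). Over all genes tested, this difference was called for 2644 (14.7%). The 15 highest and 15 lowest were chosen by their change in control cells, which enters the difference. For those genes, a smaller effect in knockout cells is thus in part built in by the choice. Values are the log2 effect in knockout minus control cells, in 3 libraries per group, and the first MED23 knockout SOX10OE replicate stood apart from the other 2. SOX10 itself differed by 0.61. The effect was more positive in knockout cells for CD200 (2.44), FABP7 (1.38), ERBB3 (1.13), RXRG (0.99), ACAN (0.97), TRIM51 (0.92), NGFR (0.89), ITIH5 (0.88), ELOVL2 (0.75), ATP10B (0.67), IL1RAP (0.54) and TAFA2 (0.51). Among genes that fell in control cells, the fall was smaller in knockout cells for ARHGAP29 (0.86), COL5A3 (0.59), TENM2 (0.56), COL13A1 (0.55), GDA (0.46), CPA4 (0.43), AXL (0.27) and CCND1 (0.19). The effect was more negative in knockout cells for EGFR (-1.12), MITF (-0.95), IL17RD (-0.51), ABCC3 (-0.44), PCDH7 (-0.42), F2RL1 (-0.31) and DUSP6 (-0.3).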

How the results depend on the processing

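Log2 fold changes of single genes in control cells kept their sign under every alternative that recomputed them. For single genes, values in knockout cells, interaction values and values after MED23 loss were not recomputed. Neither were the list medians and the shares of genes also changed by MED23 loss. Against a minimum of 1.2-fold, 506 genes were higher and 601 lower. With the numbers as a replicate block, which do not pair the libraries (3 of 6 correlated best with their own number), 2252 and 2064 genes were called, SOX10 had a log2 fold change of 0.19, and 2903 interaction and 10080 MED23 loss calls were made. DESeq2's Wald test called 1711 and 1513 genes. Leaving out a library gave 1622 to 2443 higher and 1511 to 2231 lower genes, 137 to 158 and 266 to 306 at 2-fold, a SOX10 log2 fold change of 0.18 to 0.21, 2151 to 3466 interaction calls and 8893 to 9928 calls for MED23 loss. Of 714 recomputed list counts 43 moved by over 1.5 times, and of 2888 recomputed values of single genes 84 lost and 2 gained a call. With 3 libraries a group, the lowest genes rest on few counts (SOX9 on 17 in SOX10OE).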

Other observations

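Hypoxia and glycolysis genes were higher in 9 of 20 cases and lower in 3 (median log2 fold change 0.08, against 11.6% higher and 11% lower over all genes). PFKFB3 and PFKFB4, which make an activator of glycolysis, rose by 0.42 and 0.37 on the log2 scale, the collagen prolyl hydroxylase P4HA1 by 0.30 and hexokinase HK2 by 0.25, while NDRG1, the glucose transporter SLC2A1 and ENO2 fell by 0.26, 0.23 and 0.18. Of 20 cholesterol and fatty acid synthesis genes, 4 were higher (20%, against 11.6% of all genes) and 6 lower (30%, against 11%), with a median of -0.05. The number higher was 2 without EV replicate 3 or SOX10OE replicate 3. SC5D, a late enzyme of cholesterol synthesis, rose by 0.24 on the log2 scale, and LSS, the lanosterol synthase, fell by 0.26.

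Of 19 interferon response genes, 0 were higher by edgeR and by DESeq2 (1 at an unadjusted p under 0.05), against 11.6% of all genes. A lower level was called for 6 (31.6%, against 11% of all genes, median -0.09), and for 4 by DESeq2. The number lower was 3 without EV replicate 3. Without SOX10OE replicate 2, MED23 knockout EV replicate 2 or MED23 knockout SOX10OE replicate 1, 1 was higher. IFI44 went from 19.1, 18.8 and 19.5 CPM to 11.6, 10.3 and 10.6 CPM, and OAS3 fell by 0.23 on the log2 scale, while MX1 and IFIT1 did not pass. Of 18 p53 target genes 3 were higher (16.7%, against 11.6% of all genes) and 4 lower (22.2%, against 11%), with a median of -0.00. The number lower was 2 by DESeq2 and without EV replicate 1 or SOX10OE replicate 3. ZMAT3 and SESN1 rose by 0.29 and 0.27, AEN and PHLDA3 fell by 0.33 and 0.25, and CDKN1A had a log2 fold change of -0.02. Of 20 ATF4 and unfolded protein response genes 8 were higher (40%, against 11.6% of all genes) and 2 lower (10%, near the 11% of all genes), with a median of 0.06. The number higher was 4 without EV replicate 1 and 5 without EV replicate 2 or SOX10OE replicate 2. The chaperone HSP90B1 and the serine synthesis enzyme PSAT1 rose by 0.20 and 0.26, and the cystine transporter SLC7A11 fell by 0.23.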
